A study of Mus musculus with 10 samples.

Results

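Desmosomal cadherins are the adhesion proteins of the desmosome, and their transcripts were followed here in RhoA-deficient and control mouse keratinocytes. The set comprised 8 genes, namely the desmocollins Dsc1, Dsc2 and Dsc3 and the desmogleins Dsg1a, Dsg1b, Dsg1c, Dsg2 and Dsg3. Its members were all probe sets whose platform annotation holds one of these symbols, which gave 14 probe sets for 6 of the genes out of 45037 probe sets for 18193 named genes. Dsg1c and Dsg3 had no probe set under their symbol in the annotation used, so neither could be followed by a probe set of its own. Whether any of the 9160 probe sets without a symbol here reads them is unknown. None of the 14 probe sets was annotated to several genes. The 3 Dsg1 genes of the mouse are close paralogs, however, so the signals annotated to Dsg1a and Dsg1b may hold transcripts of more than 1 of them.

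Desmocollins and desmogleins are calcium-dependent adhesion proteins that bind each other across the gap between cells. Their tails bind plakoglobin and plakophilins, which couple them through desmoplakin to keratin filaments. In stratified epidermis the types are layered: Dsc3 and Dsg3 are strongest in basal and lower layers, Dsc1 and Dsg1 in the differentiating upper layers, and Dsc2 and Dsg2 are the forms best known from simple epithelia and heart. In the reference annotation all of these genes form 1 cluster on chromosome 18, in the order Dsc3, Dsc2, Dsc1, Dsg1c, Dsg1a, Dsg1b, Dsg4, Dsg3 and Dsg2. Dsg4, the hair follicle desmoglein, also had no probe set under its symbol.

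Expression was measured on 10 whole-genome arrays. Cultured primary keratinocytes gave 3 RhoA-KO arrays (genotype RhoA fl/fl K5 cre, written KO) and 3 Wildtype arrays (RhoA fl/+ K5 cre), and keratinocytes freshly isolated from epidermis gave 2 KO and 2 Wildtype arrays. All groups thus carried the K5-driven Cre recombinase, active in basal keratinocytes and inherited by their descendants, and at least 1 floxed RhoA allele. The controls are therefore heterozygous floxed animals rather than animals without Cre. The labels number the arrays as biological replicates but name no animals, cultures or ages, so each p-value reflects only how far these samples scatter.

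Values are linear signals made by the authors. The median signal was 7.75 to 8 on cultured arrays and 64.1 to 64.8 on fresh arrays, so the conditions were on different scales and KO was compared with Wildtype only within each. The keratinocyte keratin genes Krt5 and Krt14 read 46739 to 59207 in culture and 21546 to 27346 in fresh cells. The suprabasal keratin gene Krt10 read 426 to 712 in culture and 29043 or more in fresh cells, and Krt1 read 4.30 to 26.7 in culture, near the floor of those arrays. Among fresh arrays, KO replicate 2 stood apart by its hair follicle transcripts: the 15 hair follicle genes on the array summed to 48374 there, against 2241 in KO replicate 1 and 2535 and 3564 in the Wildtype arrays. The fresh values of the members, and those of other genes where it matters, are therefore also given without it. Rhoa was read by 3 probe sets, none past the threshold. The one brightest in fresh cells averaged 7892 ± 294 in cultured KO and 10123 ± 1027 in cultured Wildtype cells (adjusted p = 0.156), and 4347 ± 72.2 in fresh KO and 3792.5 ± 377 in fresh Wildtype cells (adjusted p = 0.434). Whether they read the floxed exons is unknown, so they do not check the labels.

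In cultured KO keratinocytes the cadherins of the upper epidermal layers read above all Wildtype cultures, Dsc3 overlapped with the controls, and 4 of 6 Dsg2 probe sets read below them. Dsc1 rose 5.68-fold and 6.94-fold by its 2 probe sets. Dsg1b, Dsc2 and Dsg1a had folds of 3.05, 2.14 and 1.83 by their brightest probe sets without passing the threshold. Of the 14 probe sets, limma (2-sided, Benjamini-Hochberg adjusted p under 0.05 over all probe sets tested) called 2 higher, both of Dsc1, and 0 lower, against 0.273% of the 22682 probe sets tested in culture (0.181% higher and 0.0926% lower). At an unadjusted p under 0.05, 6 members were higher and 4 lower, where 15.6% of all probe sets passed (7.16% higher and 8.49% lower). KO and Wildtype signals did not overlap for 10 members, 6 of them higher and 4 lower in KO, against 22.3% of all probe sets (10.1% higher and 12.2% lower). The median log2 change of the 14 was 0.16, against -0.0068 over all probe sets. The 14 probe sets stand for 6 genes and are not independent of each other.

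**Figure D1:**
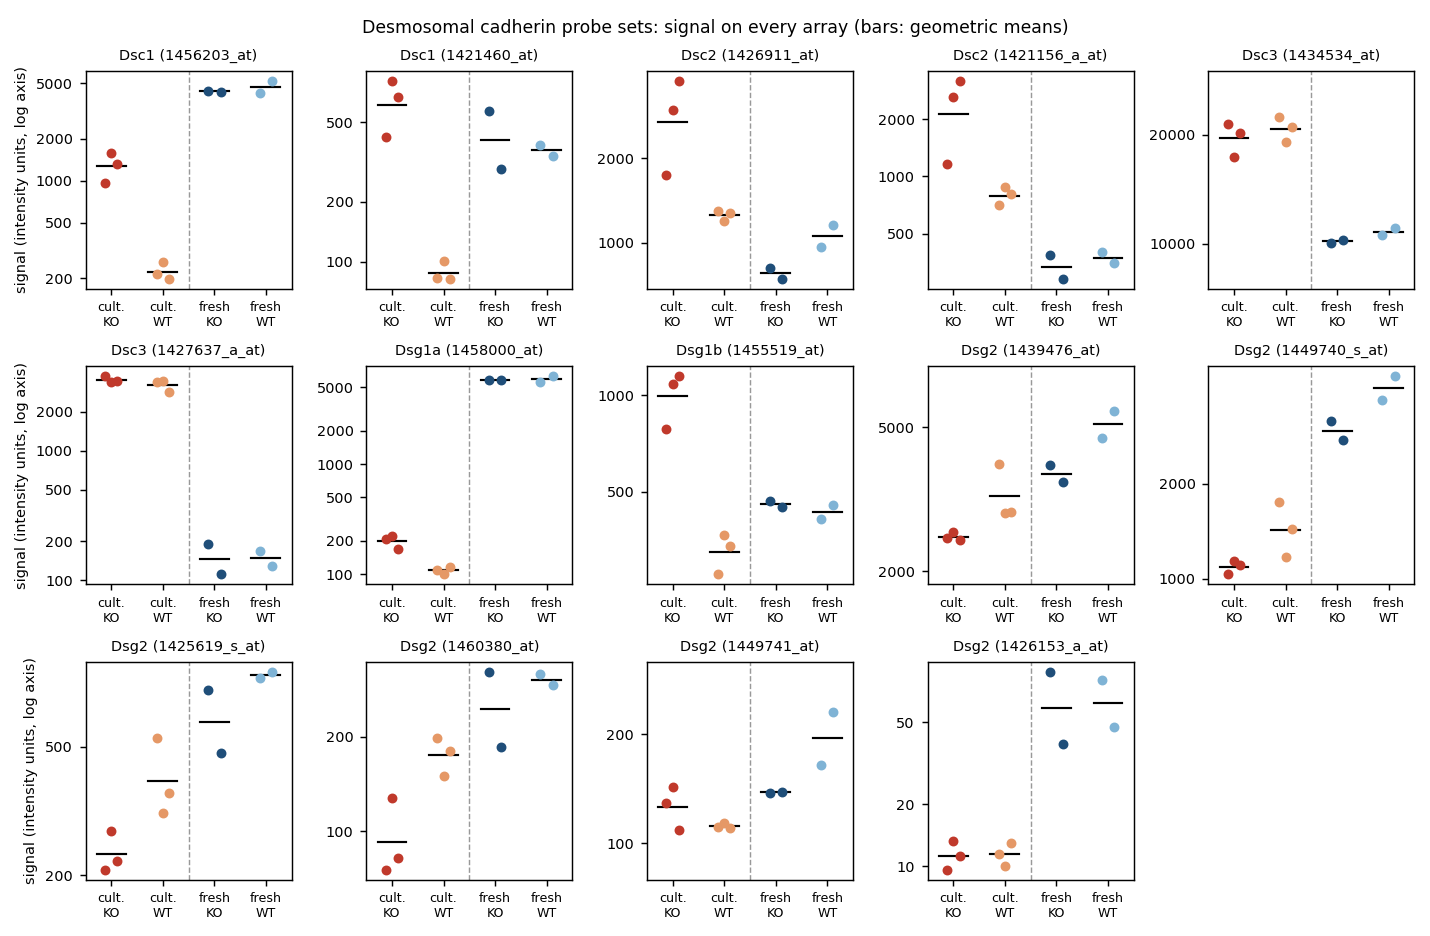
Signal of each desmosomal cadherin probe set on every array (log axis, intensity units; each point is 1 array and bars are geometric means), with cultured KO, cultured Wildtype, fresh KO and fresh Wildtype from left to right. Both Dsc1 probe sets, both Dsc2 probe sets, Dsg1a and Dsg1b are higher in all 3 cultured KO arrays than in any cultured Wildtype array. Signals left and right of the dashed line are on different scales.

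Dsc1 encodes desmocollin 1, the desmocollin of the differentiated layers. Its brighter probe set (1456203_at) read 965, 1588 and 1325 in cultured KO arrays 1 to 3, against 214, 261 and 198 in the Wildtype arrays. Every KO array lay far above every control, with KO replicate 1 the lowest of the KO arrays. The log2 change was 2.51 (SE 0.21, 95% confidence interval 1.99 to 3.03, limma adjusted p = 0.0358), the 9th smallest p of the table. The second probe set (1421460_at) read 424, 809.6 and 667 in KO arrays, against 83.2, 100.3 and 82.1 in Wildtype arrays. Its log2 change was 2.80 (SE 0.26, limma adjusted p = 0.0386), and the 2 probe sets thus showed the same separation of the groups. The size of the difference held when any 1 array was left out (2.34 to 2.70 and 2.59 to 3.06), but the adjusted p was under 0.05 only without KO replicate 1. It was 0.0563 to 0.200 without any of the other 5 arrays.

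Dsg1b and Dsg1a encode copies of desmoglein 1, which shares the upper layers with desmocollin 1. The Dsg1b probe set read 782, 1086 and 1146 in cultured KO arrays, against 277, 366 and 339 in Wildtype arrays. All KO arrays were above all controls, and the lowest KO array was again replicate 1 (log2 change 1.61, SE 0.19, 95% confidence interval 1.15 to 2.07, limma adjusted p = 0.0528). The Dsg1a probe set read 208, 222 and 170.2 in KO arrays, against 109.8, 99.7 and 117 in Wildtype arrays. These groups also did not overlap, with a smaller difference (log2 change 0.87, SE 0.14, limma adjusted p = 0.0979). The Dsg1b value passed the threshold without KO replicate 1 (log2 change 1.78, adjusted p = 0.0387).

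Dsc2 encodes desmocollin 2, the most widely expressed desmocollin. Its brighter probe set (1426911_at) read 1737, 2958 and 3779 in cultured KO arrays, against 1297, 1190.4 and 1276 in Wildtype arrays. The other (1421156_a_at) read 1167, 2615 and 3199 in KO arrays, against 703, 881 and 806 in Wildtype arrays. In both, the Wildtype arrays were close together, while KO replicate 1 lay just above them and KO replicates 2 and 3 well above. The log2 changes were 1.10 (SE 0.28) and 1.43 (SE 0.38), with limma adjusted p of 0.175 and 0.182. Without KO replicate 1 they were 1.42 and 1.87 and passed the threshold (adjusted p = 0.0418 and 0.0301).

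Dsc3 encodes desmocollin 3, the desmocollin of the basal layers. Its brighter probe set (1434534_at) read 21371, 17324 and 20261 in cultured KO arrays, against 22445, 19064 and 20971 in Wildtype arrays. The groups overlapped (log2 change -0.09, 95% confidence interval -0.33 to 0.16, limma adjusted p = 0.715). The second probe set (1427637_a_at) read 3407 to 3759 in KO arrays and 2811 to 3437 in Wildtype arrays (log2 change 0.14, 95% confidence interval -0.09 to 0.38, adjusted p = 0.522). Its groups overlapped too, and both intervals exclude changes of the size measured for Dsc1.

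Dsg2 encodes desmoglein 2, and its 6 probe sets did not all behave alike. The brightest (1439476_at) read 2463, 2560.4 and 2444 in cultured KO arrays, against 3944, 2896 and 2919 in Wildtype arrays. All KO arrays were below all controls, among which replicate 1 was highest (log2 change -0.37, SE 0.13, limma adjusted p = 0.271). For 1449740_s_at, 1425619_s_at and 1460380_at the groups were likewise apart, with log2 changes of -0.39, -0.74 and -0.92 and adjusted p of 0.308, 0.227 and 0.175. Without Wildtype replicate 1 the log2 changes of 1439476_at and 1449740_s_at were -0.22 and -0.24, the smallest with an array left out. The suffix s marks probe sets whose probes match more than 1 transcript. The remaining 2 probe sets showed overlapping groups: 1449741_at read 109 to 143 in KO arrays and 109.9 to 113 in Wildtype arrays, and 1426153_a_at read 9.61 to 13.3 in KO arrays and 10.01 to 13.0 in Wildtype arrays, near the floor.

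**Figure D2:**
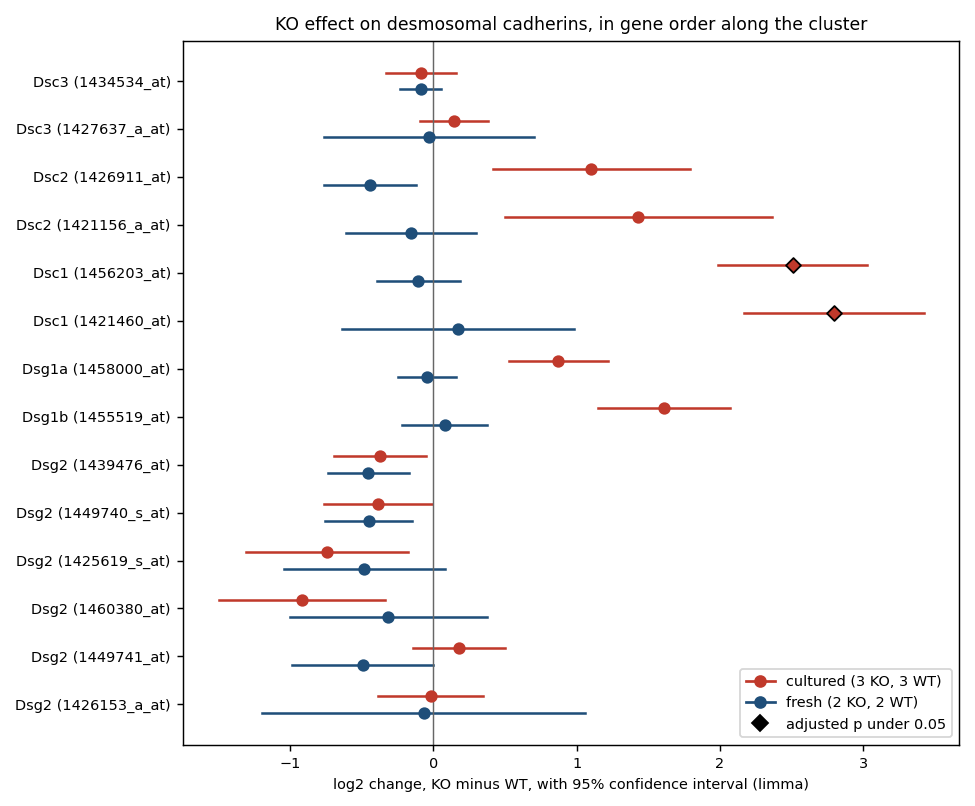
Log2 change of each desmosomal cadherin probe set, KO minus Wildtype, with limma's 95% confidence interval, in cultured cells (red, 3 arrays per group) and fresh cells (blue, 2 arrays per group). Genes run down in their order along the cluster, and diamonds mark an adjusted p under 0.05. In culture the values are near 0 for Dsc3, from 0.87 to 2.80 for Dsc2, Dsc1, Dsg1a and Dsg1b, and from -0.92 to 0.18 for Dsg2, while in fresh cells all lie between -0.49 and 0.17.

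Along the chromosome, the cultured log2 changes of the brightest probe sets were thus positive from Dsc2 to Dsg1b and near 0 or negative at the ends, in Dsc3 and Dsg2. Dsg1c, within that stretch, and Dsg4 and Dsg3, between Dsg1b and Dsg2, had no probe set under their symbol. Ratios within each array gave the balance between members. The log2 ratio of Dsc1 to Dsc3 signal was -4.47 to -3.45 in cultured KO arrays and -6.72 to -6.19 in cultured Wildtype arrays, a difference of 2.59. The log2 ratio of Dsg1b to Dsg2 signal was -1.65 to -1.09 in KO arrays and -3.83 to -2.98 in Wildtype arrays, a difference of 1.98. Neither ratio overlapped between the cultured groups (exact permutation test, 2-sided, p = 0.1 for each, the smallest that 3 against 3 arrays allow). Each pair set a member already seen higher in KO over a member that was not, so this outcome adds no support. In fresh cells the Dsc1 to Dsc3 ratio overlapped between the groups. The Dsg1b to Dsg2 ratio was again higher in KO there, at -3.07 to -2.97, against -3.61 to -3.50 in Wildtype arrays. This was a difference of 0.53, though groups of 2 arrays often separate. The ratios describe unequal change and give no relative abundance of the proteins.

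Among markers of differentiation, 1 gene was called alongside these cadherins. All 9 measured suprabasal genes of 12 listed were higher in cultured KO cells, 1 of them called (Ivl, the cornified envelope precursor involucrin, log2 change 2.07, limma adjusted p = 0.0444). With an array left out its adjusted p was 0.0348 to 0.202, under 0.05 only without Wildtype replicate 1. At an unadjusted p under 0.05, 4 of the 9 were higher, as were 7.16% of all probe sets, while 47.2% of all probe sets were higher at any p. The median log2 change of the 9 was 0.54. Their summed signal was 53007 to 63632 in KO arrays and 38745 to 46562 in Wildtype arrays, without overlap. Most of it came from Sbsn, which overlapped at 37018 to 47173 in KO and 28098 to 38294 in Wildtype arrays. Flg and Lor had larger log2 changes than Ivl, 2.70 and 2.64, without passing (limma adjusted p = 0.181 and 0.102). Krt10 and Krt1 were at log2 changes of 0.47 and 0.54 without passing, and the value of Krt1, near the floor, was the median of the list. The basal list was also higher in 9 of 9 measured members, 0 of them called and 2 at an unadjusted p under 0.05, with a median of 0.12, and its sums overlapped. The part of cell composition in the cadherin differences was not tested, and more cells of a type cannot be told apart from more RNA per cell in such samples.

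None of the genes that mark other cell types was called in culture, but some read higher in KO. The 8 fibroblast genes summed to 226 to 416 in cultured KO arrays, against 99.5 to 139.7 in Wildtype arrays. The 3 that passed the filter were higher in KO, with Fbln2 at 79.8 to 218 in KO and 28.8 to 31.0 in Wildtype arrays (log2 change 2.34, limma adjusted p = 0.0999) and Vim at 71.95 to 145 in KO and 23.1 to 65.0 in Wildtype arrays (log2 change 1.43, adjusted p = 0.223). The 5 others, among them Col1a1 (6.90 to 7.07) and Dcn (3.96 to 4.01 over all 6 arrays), were near the floor. The 4 sebaceous genes on the array summed to 11937 to 14474 in KO arrays, against 8239 to 10228 in Wildtype arrays, led by the lipid droplet gene Plin2 at 8993 to 11038 in KO and 4586 to 5832 in Wildtype arrays (log2 change 0.98, adjusted p = 0.0608), while Fasn and Scd3 were at log2 changes of -0.35 and -0.25. The 7 melanocyte genes summed to 564 to 1456 in KO arrays and 397 to 616 in Wildtype arrays, with overlap, and Tyrp1 read 236 to 719 in KO and 97.6 to 232 in Wildtype arrays. The Langerhans cell gene Cd207 read 4.44 to 4.64 over all 6 arrays. The T cell list summed to 6493 to 6835 in KO and 6522 to 6624 in Wildtype arrays, nearly all of it from the Cd3e probe set, while Cd3d, Cd3g and Thy1 were near the floor. The part of these cells in the cadherin values was not tested.

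In freshly isolated cells the higher KO signals of Dsc1, Dsc2 and the Dsg1 genes were not seen. Several probe sets of Dsg2 again read below the controls. Dsc1 and the Dsg1 genes overlapped between KO and Wildtype cells, and the members whose groups lay apart were all lower in KO, chiefly Dsg2 and 1 probe set of Dsc2. No member was called by limma, as was no probe set of the table (0% of 22893). At an unadjusted p under 0.05 there were 0 higher and 4 lower members, where 12.9% of all probe sets passed (6.01% higher and 6.89% lower). The groups did not overlap for 6 members, all lower in KO, where 46.9% of all probe sets did not overlap and 23.5% were lower. With 2 arrays per group such a separation is common, and 42.9% of members were separated, near the share of the table. Most of these 6 were probe sets of Dsg2 and so not independent, with 1 each of Dsc2 and Dsc3. Without KO replicate 2, the single KO array lay above both controls for 5 members and below both for 6 (42.9%). Of all 22893 probe sets, 8706 lay above both and 8340 (36.4%) below both, so the members were near the table. The median log2 change of the 14 was -0.13 with all arrays, against -0.00034 over all probe sets, and -0.070 without KO replicate 2, against 0.0029.

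Dsc1 (1456203_at) read 4376 and 4336 in fresh KO arrays, against 4210.1 and 5207 in fresh Wildtype arrays. The KO arrays lay between the controls (log2 change -0.10, 95% confidence interval -0.39 to 0.18, limma adjusted p = 0.730). The dimmer Dsc1 probe set read 569 and 291 in KO arrays and 384 and 340.5 in Wildtype arrays, so KO replicates 1 and 2 lay on either side of the controls. Dsg1a read 5766 and 5772 in KO arrays, against 5597 and 6304 in Wildtype arrays, and Dsg1b read 468 and 449 in KO arrays, against 413 and 456 in Wildtype arrays. Their log2 changes were -0.04 (95% confidence interval -0.25 to 0.16) and 0.08 (-0.22 to 0.38), neither called. Dsc3 (1434534_at) read 10058 and 10254 in KO arrays, slightly below the 10577 and 11017 of Wildtype arrays (log2 change -0.09, SE 0.06, adjusted p = 0.553).

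Dsg2 (1439476_at) read 3917 and 3525 in fresh KO arrays, against 4661 and 5552 in fresh Wildtype arrays. Both KO arrays were below both controls (log2 change -0.45, SE 0.11, 95% confidence interval -0.73 to -0.17, limma adjusted p = 0.292). Probe set 1449740_s_at read 3168 and 2747 in KO arrays, against 3700.3 and 4393 in Wildtype arrays, with the same log2 change of -0.45 (adjusted p = 0.303). Dsc2 (1426911_at) read 812 and 743 in KO arrays, against 968 and 1151 in Wildtype arrays (log2 change -0.44, SE 0.13, adjusted p = 0.317). Without KO replicate 2, which leaves a single KO array assumed to vary like the others, these 3 log2 changes were -0.38, -0.35 and -0.38. Those of Dsc1 1456203_at, Dsg1a, Dsg1b and Dsc3 1434534_at were then -0.098, -0.043, 0.11 and -0.10, and no member was called.

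The dimmer probe sets depended more on that array. KO replicate 2 was the lowest of the 4 fresh arrays for the brighter Dsg2 1439476_at and 1449740_s_at and Dsc2 1426911_at. Among the dimmer ones it was also the lowest for Dsc1 1421460_at, Dsc2 1421156_a_at, Dsc3 1427637_a_at and Dsg2 1425619_s_at, 1460380_at and 1426153_a_at. Dsg2 1460380_at, for example, read 324 in KO replicate 1 and 186 in KO replicate 2, against 319 and 292 in Wildtype arrays. Its log2 change was -0.31 with all arrays and 0.08 without KO replicate 2. Without KO replicate 1 instead, Dsg2 1425619_s_at passed the threshold (log2 change -0.81, adjusted p = 0.0287). Langerhans cell and myeloid genes were lower in 8 of 8 tested, with 0 called and 6 at an unadjusted p under 0.05, and the 9 genes listed summed to 15298 and 7309 in KO replicates 1 and 2, against 23144 and 18361 in Wildtype arrays, with Cd207 at 1019 and 466 in KO arrays, against 1416 and 965. Melanocyte genes summed to 1535 and 4940 in KO arrays, against 1342 and 1248. The 8 fibroblast genes summed to 2250.3 and 2618 in KO arrays, against 2061 and 1818, with Dcn at 137 and 1012 in KO arrays, against 102 and 62.6. Of the keratinocyte lists, 8 of 11 suprabasal genes were higher in fresh KO cells, with 0 called, 5 higher and 1 lower at an unadjusted p under 0.05, and overlapping sums. Of 10 basal genes 7 were lower, with 0 called and 1 higher and 3 lower at that p, and they summed to 94971 to 95147 in KO arrays, against 96071 to 99219 in Wildtype arrays. Of all probe sets, 49.9% were higher in fresh KO cells at any p, and 6.01% were higher and 6.89% lower at an unadjusted p under 0.05. The part of these cell types in the values above was not tested.

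The KO effect differed between culture and tissue for the cadherins of the upper layers. The difference of the log2 changes, cultured minus fresh, was 2.61 (SE 0.24, 95% confidence interval 2.07 to 3.15, adjusted p = 0.00957) and 2.63 (SE 0.41, adjusted p = 0.0253) for the 2 Dsc1 probe sets. It was 1.53 (SE 0.22, adjusted p = 0.0229) for Dsg1b and 0.91 (SE 0.16, adjusted p = 0.0460) for Dsg1a, all from both limma fits. These 4 members were called among 0.879% of 18773 probe sets tested in both conditions, and 7 members had an unadjusted p under 0.05, where 17.8% did. All 7 had the higher KO effect in culture, as had 7.30% of all probe sets. Dsc2 differed by 1.54 and 1.59 without passing (adjusted p = 0.0678 and 0.115). For Dsg2 1439476_at the difference was 0.08 (95% confidence interval -0.30 to 0.46), and for Dsc3 1434534_at 0.0019 (-0.26 to 0.26). The test was slightly liberal on simulated data, and with the smaller of the fits' degrees of freedom none of the 4 members was called (adjusted p = 0.280 to 0.284). The same 4 members were called without fresh KO replicate 2. All 4 calls were lost without cultured Wildtype replicate 3 or cultured KO replicate 3. Dsg1a was called only without 1 of the fresh KO arrays and lost its call without any of the other 8 arrays (adjusted p up to 0.181). Dsg1b was also lost without cultured KO replicate 2 or fresh Wildtype replicate 2, and Dsc1 1421460_at without either fresh Wildtype array.

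**Figure D3:**
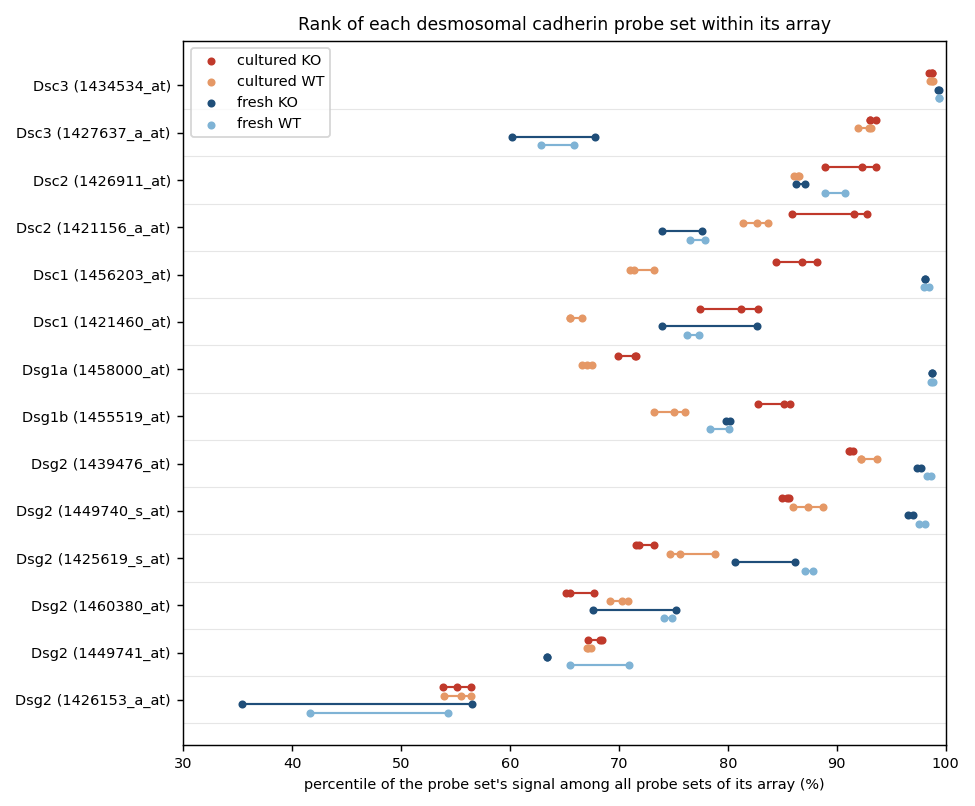
Percentile of each desmosomal cadherin probe set among all probe sets of its own array; points are arrays and lines span a group, with cultured KO, cultured Wildtype, fresh KO and fresh Wildtype from top to bottom within each probe set. Dsc1 (1456203_at) and Dsg1a lie above 98% in fresh cells and between 66.6% and 88.2% in culture, where KO ranks above Wildtype.

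Ranks within each array allowed all 4 groups to be set side by side, as a description. Dsc1 (1456203_at) ranked at 84.4% to 88.2% of the probe sets in cultured KO arrays and 71.0% to 73.3% in cultured Wildtype arrays. In fresh cells it ranked at 98.1% in both KO arrays and 98.0% to 98.5% in Wildtype arrays, so by this probe set the cultured KO cells lay between the cultured controls and the tissue. The other, 1421460_at, ranked at 77.4% to 82.8% in cultured KO and 65.5% to 66.6% in cultured Wildtype arrays, and at 74.0% to 82.7% in fresh KO and 76.2% to 77.4% in fresh Wildtype arrays, so there cultured KO cells overlapped with fresh KO cells and ranked above fresh Wildtype cells. Dsg1a ranked at 69.9% to 71.5% in cultured KO arrays, 66.6% to 67.5% in cultured Wildtype arrays and 98.7% to 98.8% in all fresh arrays. Dsg1b was highest in cultured KO arrays, at 82.8% to 85.8%, followed by both fresh groups, which overlapped at 78.4% to 80.2%, and by cultured Wildtype arrays at 73.2% to 76.0%. The annotated Dsg1a and Dsg1b probe sets thus differed in how their rank compared between culture and tissue.

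Dsc2 (1421156_a_at) ranked highest in cultured KO arrays at 85.9% to 92.8%, then in cultured Wildtype arrays at 81.4% to 83.7%, with both fresh groups lower and overlapping at 73.9% to 77.9%. The brighter Dsc2 probe set, 1426911_at, did not give this order: it ranked at 88.9% to 93.6% in cultured KO, 86.1% to 86.5% in cultured Wildtype, 86.3% to 87.1% in fresh KO and 88.9% to 90.7% in fresh Wildtype arrays, so fresh Wildtype overlapped with cultured KO and lay above cultured Wildtype. Dsg2 (1439476_at) ranked lowest in cultured KO cells, at 91.1% to 91.5% in cultured KO arrays, 92.2% to 93.7% in cultured Wildtype arrays, 97.4% to 97.8% in fresh KO arrays and 98.3% to 98.6% in fresh Wildtype arrays. None of these groups overlapped, and 1449740_s_at and 1425619_s_at gave the same order. The other 3 Dsg2 probe sets did not. For 1449741_at fresh KO ranked lowest, at 63.4%, below cultured KO at 67.1% to 68.5%, for 1460380_at fresh KO, at 67.6% to 75.3%, overlapped with each of the other groups, and the groups of 1426153_a_at overlapped. Dsc3 (1434534_at) was at 98.5% or higher on every array. The other Dsc3 probe set ranked at 92.0% to 93.6% in culture and 60.2% to 67.8% in fresh cells, so the 2 probe sets of this gene disagree on culture against tissue. The scales of the 2 conditions differ, and the part of this in the ranks was not tested.

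For the partners of these cadherins no gene passed the threshold. Of 10 plaque and associated genes, limma called 0 in either condition. In culture 5 were higher and 5 lower, with a median log2 change of -0.0070. At an unadjusted p under 0.05 there were 2 of each, where 7.16% of all probe sets were higher and 8.49% lower. In fresh cells 4 of 9 tested were higher and 5 lower (0 at an unadjusted p under 0.05), with a median of -0.0098 against -0.00034 over all probe sets. Dsp, which encodes desmoplakin, averaged 34419 ± 1405 in cultured KO and 29573 ± 1505 in cultured Wildtype cells (SD, n = 3 each; log2 change 0.22, limma adjusted p = 0.168). This was its brightest probe set, and the dimmer ones had larger log2 changes of 0.33 and 0.58 in culture (limma adjusted p = 0.193 and 0.0746). KO and Wildtype signals of Dsp did not overlap in culture for any of its 3 probe sets, as for 10.1% of all probe sets with KO higher. In fresh cells they overlapped for all 3. Jup (plakoglobin), Pkp1, Pkp3 and Pkp4 (plakophilins) and Perp, a tetraspan protein of desmosomes, had log2 changes between -0.07 and 0.04 in culture and between -0.12 and 0.06 in fresh cells. Pkp2 read 61.3 ± 38.2 in cultured KO and 116.5 ± 68.1 in cultured Wildtype cells (SD, n = 3 each), with overlap, and was below the filter in fresh cells.

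The plakins that link desmosomes to the cornified envelope read lower in cultured KO cells, without passing. Ppl (periplakin) averaged 1578 ± 432 in KO and 2703 ± 552 in Wildtype cultures, and Evpl (envoplakin) 869 ± 59.0 in KO and 1336 ± 196 in Wildtype cultures (SD, n = 3 each; limma adjusted p = 0.235 and 0.131). Cdsn, which encodes corneodesmosin, the extracellular protein added to desmosomes in the uppermost layers, averaged 2284 ± 1419.6 in KO and 228 ± 100.5 in Wildtype cultures (log2 change 3.17, SE 0.67, limma adjusted p = 0.132). In fresh cells Cdsn read 2390.2 and 1092 in KO arrays, against 2511 and 3197.5 in Wildtype arrays (log2 change -0.81, limma adjusted p = 0.431, and -0.25 without KO replicate 2). The difference between its cultured and fresh log2 changes, 3.98 (SE 0.76), did not pass (adjusted p = 0.0521), and without fresh KO replicate 2 it was 3.42 (SE 0.68, adjusted p = 0.102). Without that array 0 plaque, protease or adherens genes were called in fresh cells either, and the fresh log2 change of Ppl was -0.096, against -0.22 with it.

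**Figure D4:**
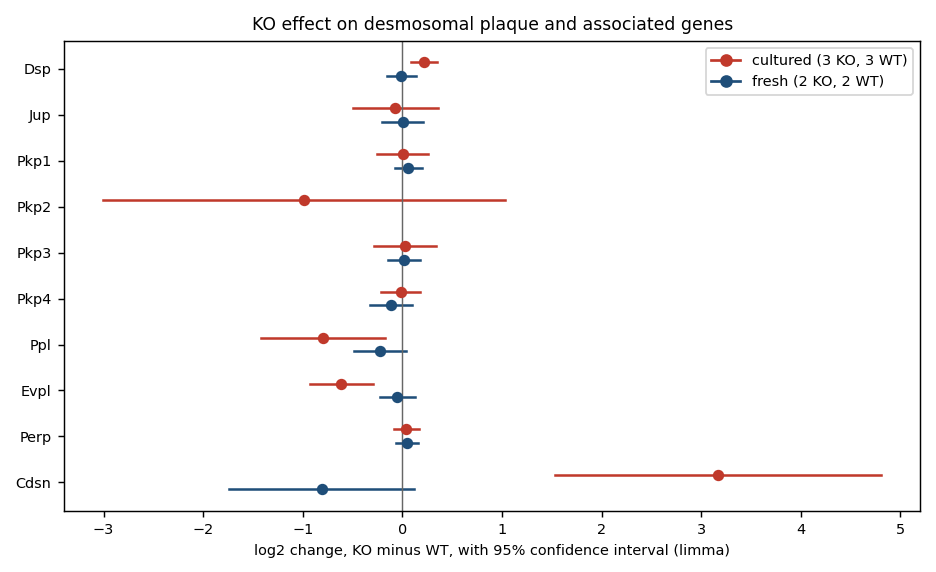
Log2 change of desmosomal plaque and associated genes, KO minus Wildtype, with limma's 95% confidence interval, in cultured cells (red, 3 arrays per group) and fresh cells (blue, 2 arrays per group). Most plaque genes lie near 0 in both conditions, Ppl and Evpl are at -0.80 and -0.61 and Cdsn at 3.17 in culture, and none passed the threshold.

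Genes for proteases that cut desmosomal cadherins and for their inhibitors contained 1 called member among 11 tested in culture. Adam9, a membrane metalloprotease of the shedding family, averaged 4489.7 ± 126 in cultured KO and 8428 ± 1023 in cultured Wildtype cells (SD, n = 3 each; log2 change -0.90, limma adjusted p = 0.0444), and the call was lost when any 1 array was left out (adjusted p = 0.0538 to 0.202). The kallikrein protease genes Klk6 and Klk5 and the inhibitor gene Spink5 were at log2 changes of 1.62, 1.18 and 0.9995 in culture (adjusted p = 0.204, 0.216 and 0.279). In fresh cells 0 of 12 were called, with 5 higher and 1 lower at an unadjusted p under 0.05, where 6.01% of all probe sets were higher and 6.89% lower. Klk6, Klk8, Klk13 and Klk7 were at log2 changes of 1.36, 0.91, 1.33 and 0.42 there (adjusted p = 0.153, 0.153, 0.242 and 0.346). Of 9 adherens junction genes, 0 were called in either condition, with 0 in culture and 2 in fresh cells at an unadjusted p under 0.05. In culture the smallest p among them were those of Afdn (log2 change -0.41), Cdh1 (E-cadherin, -0.15), Vcl (-0.18) and Ctnnb1 (0.036), and in fresh cells those of Nectin1 (0.70), Afdn (-0.20), Ctnna1 (-0.16) and Nectin4 (-0.16).

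The genes whose signal followed a member most closely were found by Pearson's r over the 10 arrays, with each value taken as its deviation from the mean of the condition, among 9801 genes. Dsc1 was followed most closely by Dsg1b (r = 0.984), then by the lipid droplet gene Plin2 (0.978) and Ypel5 (0.976). Dsg1b was closest to Plin2 (0.989), the calmodulin-like gene Calm4 (0.987) and Dsc1 (0.984), so that Dsc1 and Dsg1b stood among each other's 3 nearest. Dsc2 was closest to the late cornified envelope genes Lce1b (0.992) and Lce1c (0.990) and to Ank3 (0.978). Dsg1a was closest to Cyp4f39 (0.972), a gene of acylceramide synthesis, Ntpcr (0.951) and Bloc1s5 (0.946). Dsg2 was closest to Phldb1 (0.966), Ptger4 (0.965) and the polarity gene Pard6b (0.961), and Dsc3 to Tmem185b (0.952), Zc3h4 (0.925) and Zfp553 (0.924). The 10 arrays share genotype and array differences, so these r carry no test. They rest mostly on the 6 cultured arrays: over the 4 fresh arrays alone r was 0.436 for Dsc1 with Dsg1b, -0.139 for Dsc1 with Plin2 and -0.883 for Dsg1b with Plin2, but 0.964 to 0.969 for Dsc2 with the Lce genes and 0.956 to 0.993 for Dsg2 with its 3 genes.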

How the data were processed

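Per the labels' protocols, total RNA was labelled with an Affymetrix 3' IVT kit and hybridised to whole-genome mouse arrays. The authors deposited a linear intensity for every probe set on each array. MAS5 is the tool in the submitters' processing notes, without its settings. Probe sets were named by the platform annotation, with symbols brought up to date by Entrez identifier from a RefSeq table (GRCm38.p6), which also gave the gene order. Of 45037 probe sets, 34945 had 1 symbol, 932 several and 9160 none here.

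Intensities were converted to log2 without offset. Probe sets above the array median on at least 2 arrays of a condition were tested by limma 3.58.1 in R 4.3.3 (lmFit, eBayes with trend, 2-sided), per condition, with Benjamini-Hochberg adjustment over all of them. All 14 member probe sets passed this filter in both conditions. The difference between conditions combined both fits' log2 changes and standard errors. Scripts were tested on simulated data. A gene with several probe sets was represented by its brightest probe set, by mean log2 intensity.

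All members, every plaque gene, Rhoa, up to 4 protease and adherens genes by p, and the 3 genes most correlated with each member are named. The members, lists and this rule were chosen with earlier results of these data known. The number of arrays limits the precision. Same-numbered KO and Wildtype arrays were not shown to be paired.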

Additional observations from a re-analysis of the deposited data

Results flagged for a closer look

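For 4 desmosomal cadherin probe sets, a test of the difference itself called the effect of RhoA loss different between cultured and fresh cells. The part of the different array scales in this was not tested. None of these 4 calls held with the smaller of the fits' degrees of freedom, and each was lost with some single arrays left out. The difference in log2 change, cultured minus fresh, was 2.61 for Dsc1 1456203_at, from 2.51 in culture and -0.10 in fresh cells, and 2.63 for Dsc1 1421460_at, from 2.80 and 0.17. It was 1.53 for Dsg1b, from 1.61 in culture and 0.08 in fresh cells, and 0.91 for Dsg1a, from 0.87 and -0.04. No group held enough arrays for a test of single outlying arrays.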

How the results depend on the processing

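The direction of the cultured differences of Dsc1, Dsc2, Dsg1a and Dsg1b held under every alternative run, while their calls did not. The count of called members in culture, 2, was 0 without the filter, without the trend and with a replicate block, 1 with an offset of 50, 4 in 1 fit over all 10 arrays and at an adjusted p under 0.1, and 0 to 5 with an array left out. In fresh cells it was 0 to 1 with an array left out. For the difference between conditions, 4, it was 0 with the smaller degrees of freedom, an alternative chosen after seeing the data, and 0 to 6 with an array left out. Over the whole table the cultured count, 62, was 2 (no filter), 176 (stricter filter), 32 (offset), 128 (75th percentile centring), 7 (no trend), 299 (array weights), 17 (replicate block), 395 (all 10 arrays), 250.0 (adjusted p under 0.1) and 0 to 94 with an array left out. The fresh count, 0, was 393 in the fit over all 10 arrays and 0 to 1003 with an array left out, the highest without fresh KO replicate 1 and 12 without KO replicate 2. Same-numbered cultured arrays deviated together at r of 0.322, 0.0809 and 0.249, so the block rests on numbers only.

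Signs changed only for uncalled log2 values, of which the furthest from 0 with all arrays was -0.31 (Dsg2 1460380_at in fresh cells). Averaging the probe sets of a gene gave 0.029 for Dsc3 in culture and 0.033 for Dsc1 in fresh cells. Dsg2 1426153_a_at in culture was 0.0010 with 75th percentile centring and 0.0046 with array weights, and the Dsc3 1434534_at difference was -0.027 with array weights. With an array left out, cultured values ranged from -0.15 to 0.0020 for Dsc3 1434534_at and from -0.14 to 0.097 for Dsg2 1426153_a_at. Fresh values ranged from -0.26 to 0.049 and -0.31 to 0.65 for Dsc1 1456203_at and 1421460_at, -0.36 to 0.053 for Dsc2 1421156_a_at, -0.41 to 0.35 for Dsc3 1427637_a_at, -0.13 to 0.044 for Dsg1a, -0.71 to 0.085 and -0.65 to 0.51 for Dsg2 1460380_at and 1426153_a_at, and -0.032 to 0.11 for Adam9. Differences ranged from -0.061 to 0.090 and -0.21 to 0.56 for Dsc3 1434534_at and 1427637_a_at, and for Dsg2 from -0.044 to 0.23 (1439476_at), -0.083 to 0.21 (1449740_s_at), -0.59 to 0.063 (1425619_s_at) and -0.53 to 0.63 (1426153_a_at). The cause was not tested.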

Other observations

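Within the family, deviations from the condition mean ran together for some members over the 10 arrays, as a description without test. Pearson's r was 0.875 for Dsc1 with Dsc2, 0.930 for Dsc1 with Dsg1a, 0.879 for Dsc2 with Dsg1b and 0.893 for Dsg1a with Dsg1b. Dsg2 and Dsc3 ran the other way to unequal degrees, with r to the other members from -0.643 (Dsg1b with Dsg2) to -0.275 (Dsc2 with Dsg2). For Dsc1 with Dsc3 it was -0.454, and for Dsg2 and Dsc3 with each other 0.551. All arrays share the genotype difference within a condition, which enters each of these values. The values pool both conditions, and over the 4 fresh arrays alone r was 0.436 for Dsc1 with Dsg1b, against 0.984 over all 10.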
